A study of Homo sapiens with 2 samples.

Results

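The genes described here encode heat shock proteins, the cochaperones that assist them and the cytosolic chaperonin. A list of 42 genes was read from 2 Affymetrix arrays of DLD-1, an established line of human colon cancer cells with mutant p53 of its own. For one array the culture had spent 9 h in medium free of tetracycline, which turns on a wild-type p53 transgene, and for the other tetracycline was present and the transgene off. Both cultures carried the same stable tet-off construct, so they differ in tetracycline as well as in the transgene, and the 2 cannot be told apart. Neither the promoter of the transgene nor whether the line is 1 clone was given in the sources used here. Of the 42 genes, 38 had at least 1 probe set annotated to them alone, and 36 of these were measured, out of 13915 measured genes among 19775 named ones. HSPA1B, HSPA8, TCP1 and AHSA1 had no such probe set, and HSPA2 and HSPB8 stayed dim on both arrays. Each condition had 1 array, so every ratio describes these 2 arrays and no test between the conditions was possible.

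Chaperones bind unfolded or partly folded proteins, and many of them release these proteins through cycles of ATP binding and hydrolysis. HSP70 proteins are loaded with clients by J-domain proteins and reset by exchange factors of the HSP110 and BAG families. HSP90 takes partly folded kinases and receptors from HSP70 through a series of cochaperones, and the CCT ring (TRiC) folds actin and tubulin. Heat shock factors switch on the cytosolic and several mitochondrial genes through heat shock elements, while the unfolded protein response acts on those of the endoplasmic reticulum (ER).

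Values are linear MAS5 signal intensities. Signals under a floor of 112.4, the median of all signals that were not controls, were set to that floor, and a gene under it on both arrays was called not measured. Each gene was read from its brightest probe set, and the ratio is p53 on over p53 off. A gene was called higher or lower at 1.5-fold, which is 0.58 on the log2 scale. Over all measured genes the log2 ratio had a median of 0.0035. Directions are relative to equal signals on the 2 arrays as deposited, and the ratios were not centred on that median. With the arrays scaled to the hybridization spike-ins instead, that median would be -0.80. The actin control read 7.29 times brighter at its 3' than at its 5' end with p53 on, against 1.37 times with p53 off, and the part of this difference in the chaperone ratios was not tested. Of 10 epithelial and colon markers, 8 were measured, and the signals of all 10 summed to 173861 with p53 on and 107344 with p53 off. Of the markers of other cell types, 1 of 6 leukocyte, 4 of 6 fibroblast and 3 of 5 endothelial genes were measured. Those with a probe set of their own, measured or not, were 4, 6 and 5 genes. Their summed signals were 458.8, 820.6 and 611.4 with p53 on and 196.4, 375.9 and 233.2 with p53 off. None of these genes was at 0. CDKN1A, a direct p53 target that arrests the cell cycle, read 23349 with p53 on and 2723 with p53 off.

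The chaperone genes did not move as a block. Of the 36 measured genes, 8 (22.2%) were at least 1.5-fold higher with p53 on, against 25.9% of all measured genes, and 11 (30.6%) were at least 1.5-fold lower, against 25.9%. At 2-fold, 5 genes (13.9%) were higher and 5 (13.9%) lower, against 15.3% and 13.5% of all measured genes. Both pairs of shares lie near the background, and the median log2 ratio of the 36 genes was -0.12. In a bulk lysate, fewer expressing cells and less RNA per cell cannot be told apart. Single genes lay on both sides. HSPA6, HSPA4L, HSPB1, BAG3 and DNAJB2 were at least 2-fold higher, whereas STIP1, FKBP4, DNAJB1, CCT3 and CDC37 were at least 2-fold lower.

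**Figure D1:**
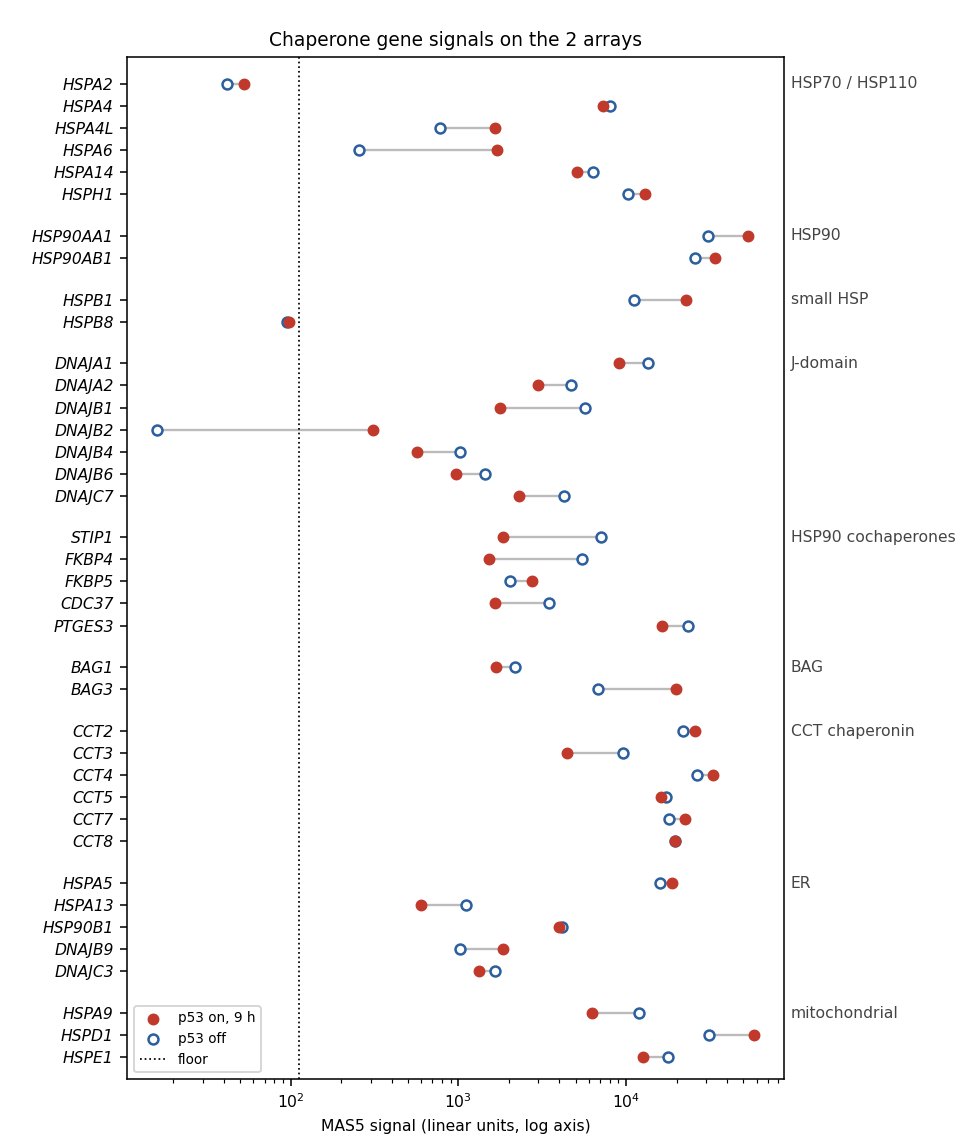
MAS5 signals (linear units on a log axis) of the 38 chaperone genes with a probe set of their own, by class. Filled red points are the p53 on array and open blue points the p53 off array, joined for each gene, and the dotted line is the floor of 112.4. HSPA6, BAG3 and HSPB1 lie well to the right with p53 on, and STIP1, FKBP4 and DNAJB1 well to the left.

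Among cytosolic HSP70 and HSP110 genes, 2 of 5 measured (40%) were higher and none was lower, against 25.9% of all measured genes in each direction. Their median log2 ratio was 0.34, or -0.15 with the second brightest probe sets. HSPA6, a strictly stress-inducible HSP70 that is nearly silent in unstressed cells, had the largest ratio of all 36 genes with the floor applied. Its signal was 1710 with p53 on and 254.5 with p53 off, a 6.72-fold difference. Its other probe set read 1028 and 215.7, a log2 ratio of 2.25. With 1 added to each signal in place of the floor, DNAJB2 had the larger log2 ratio, 4.19 against 2.74 for HSPA6. HSPA4L, an HSP110-type exchange factor, read 1649 with p53 on and 776.6 with p53 off, which is 2.12-fold higher, and its second probe set gave a larger log2 ratio of 2.33. The related exchange factor HSPA4 read 7262 with p53 on and 7973 with p53 off on its brightest probe set. All 4 probe sets of HSPA4 were lower, with log2 ratios from -1.10 to -0.13. HSPH1, the heat-inducible HSP110, had signals of 12930 with p53 on and 10207 with p53 off, and its 3 probe sets did not share a sign (-0.15 to 0.34). HSPA14, an HSP70 that works at the ribosome, read 5108 with p53 on and 6383 with p53 off, and all 3 of its probe sets were lower by 0.32 to 0.55 on the log2 scale. HSPA2, an HSP70 of the testis, read 52.6 and 41.8, both under the floor.

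The HSP90 genes are among the brightest on the arrays. HSP90AA1, the inducible cytosolic HSP90, read 53348 with p53 on and 30850 with p53 off, 1.73-fold higher, and all 4 of its probe sets were higher (log2 ratios 0.29 to 0.90). HSP90AB1, the constitutive form, read 34082 with p53 on and 25784 with p53 off, a log2 ratio of 0.40, which did not reach 1.5-fold. These ratios have to be read against other genes of the same brightness. Of the 175 genes with a mean signal of at least 20000, 94.9% had log2 ratios above 0 and 60.6% reached 1.5-fold, and their median was 0.69. Corrected for this trend by loess, HSP90AA1 had a log2 ratio of 0.14 and HSP90AB1 of -0.12, and after quantile normalization they had -0.0069 and -0.18, so neither direction held. HSPB1, a small heat shock protein that holds unfolded clients, read 22655 with p53 on and 11178 with p53 off on its single probe set, 2.03-fold higher, and its log2 ratio was 0.71 after loess. HSPB8, the partner of BAG3 in clearing misfolded proteins, was under the floor on both arrays, at 97.5 and 94.8.

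**Figure D2:**
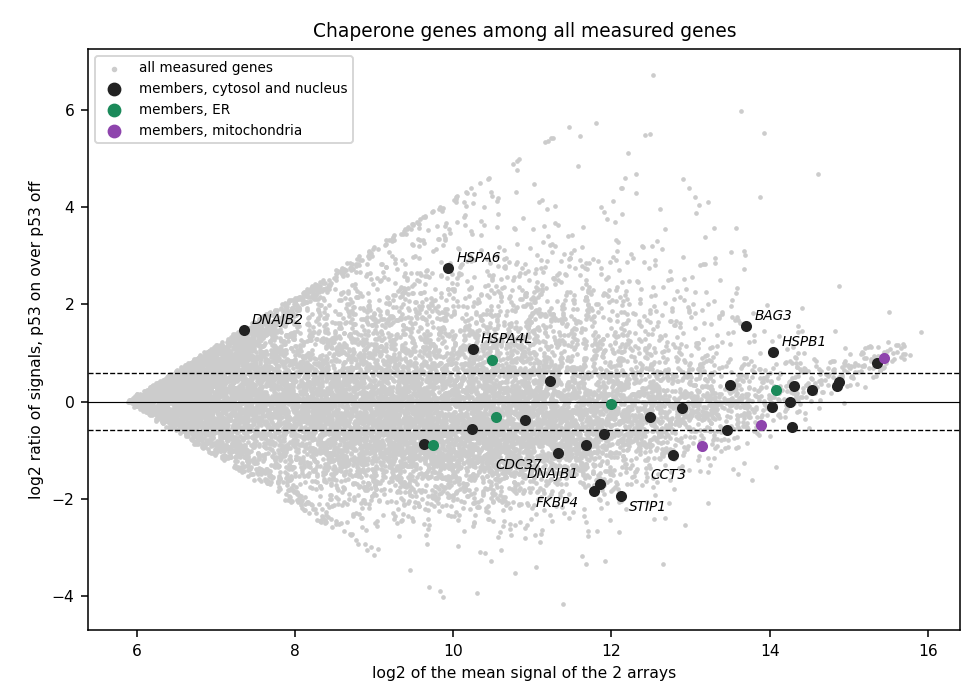
Log2 ratio of signals, p53 on over p53 off, against the log2 of the mean signal of the 2 arrays, for all 13915 measured genes (grey) and the 36 measured chaperone genes (black for cytosol and nucleus, green for ER, purple for mitochondria). Dashed lines mark 1.5-fold, genes past 2-fold are named, and the brightest genes at the right edge lie above 0.

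The DNA upstream of these genes is shown because heat-inducible genes are known to share heat shock elements. The three-unit element was searched as GAANNTTC followed by NNGAA and the two-unit element as GAANNTTC alone, on both strands, in the 250 bases before each RefSeq start site of GRCh38.p14. Every three-unit match contains a two-unit match. RefSeq windows were found for 40 of the 42 genes, and HSPA14 and FKBP4 are named only. The 40 genes had 55 windows, since some have several start sites. A three-unit match was present in 6 of these 55 windows (10.9%), against 0.44% of all 35116 windows. Each of the 6 belonged to a different gene, of which HSPA6, HSP90AA1, HSP90AB1, HSPD1 and DNAJB6 were measured. A two-unit match was present in 13 of the 55 windows (23.6%), 1 for each of 13 genes, against 5.78% of all windows. Of the 5 measured genes with a three-unit match, 3 reached 1.5-fold higher and none reached 1.5-fold lower. Among these 3, HSP90AA1 and HSPD1 no longer reached it after loess. Of the 9 measured genes with a two-unit match, 4 reached 1.5-fold higher and 2 reached 1.5-fold lower, so genes with that motif were found in both directions. Of all measured genes, 25.9% were higher and 25.9% lower. The windows below lie at chr1:161524340-161524539 (plus strand), chr14:102087045-102087164 (minus strand), chr6:44247763-44247942 (plus strand), chr7:157336854-157337003 (plus strand) and chr19:14518398-14518517 (minus strand). All read 5' to 3' and end at the base before the start site. Capitals mark the three-unit matches, and for DNAJB1 the two-unit matches.
HSPA6: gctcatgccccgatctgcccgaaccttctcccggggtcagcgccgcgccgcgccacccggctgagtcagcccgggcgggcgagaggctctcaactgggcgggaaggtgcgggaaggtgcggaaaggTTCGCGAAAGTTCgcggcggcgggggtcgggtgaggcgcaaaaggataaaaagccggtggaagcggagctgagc
HSP90AA1: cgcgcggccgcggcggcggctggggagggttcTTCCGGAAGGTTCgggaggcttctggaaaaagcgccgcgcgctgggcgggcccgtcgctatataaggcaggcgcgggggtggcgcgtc
HSP90AB1: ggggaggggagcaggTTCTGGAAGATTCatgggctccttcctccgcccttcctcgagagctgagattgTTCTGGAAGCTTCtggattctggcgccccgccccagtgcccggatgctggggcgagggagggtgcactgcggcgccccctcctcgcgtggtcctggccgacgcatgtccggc
DNAJB6: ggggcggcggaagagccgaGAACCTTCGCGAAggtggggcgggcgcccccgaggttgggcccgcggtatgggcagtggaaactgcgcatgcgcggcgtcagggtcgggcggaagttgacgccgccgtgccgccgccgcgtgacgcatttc
DNAJB1: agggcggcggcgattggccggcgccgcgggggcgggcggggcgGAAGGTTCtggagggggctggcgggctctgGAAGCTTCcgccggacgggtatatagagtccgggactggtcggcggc

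Positions varied within the 250 bases searched. The three-unit match began at position -74 in HSPA6, at -88 in HSP90AA1 and at -131 in DNAJB6, counting the base before the start site as -1. Where a gene has several start sites, that of the window with the match is meant. HSP90AB1 held matches at -165 and -112, and DNAJB1 held two-unit matches at -77 and -47. HSPA6 and DNAJB1, both induced by heat shock factors in stressed cells, stood at the opposite ends of the measured ratios of these 5 genes, at 2.75 and -1.69. DNAJB1 held no three-unit match. A match describes letters only, and binding was not measured.

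**Figure D3:**
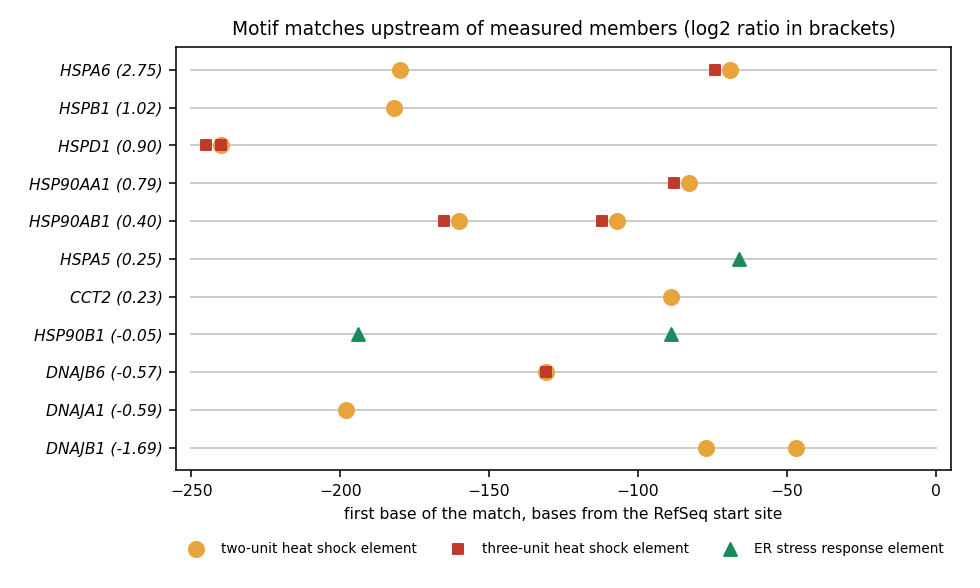
Positions of motif matches, in bases from the RefSeq start site, upstream of the 11 measured chaperone genes that hold one. Genes run from the highest to the lowest log2 ratio (in brackets), circles are two-unit and squares three-unit heat shock elements, and triangles are ER stress response elements. Two-unit heat shock elements occur upstream of genes at both ends of the order.

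Cytosolic J-domain genes, which deliver clients to HSP70, were mostly lower on their brightest probe sets, with a median log2 ratio of -0.66. Lower by at least 1.5-fold were 5 of 7 (71.4%), against 25.9% of all measured genes. DNAJB1, the main heat-inducible J-domain protein, read 1760 with p53 on and 5667 with p53 off, 3.22-fold lower, and its second probe set, at 1388 and 3444, was lower as well. DNAJA1, a farnesylated partner of HSP70, read 9008 with p53 on and 13557 with p53 off, 1.51-fold lower and barely past the threshold. DNAJB6, which keeps polyglutamine proteins from aggregating, fell just short of it at 971.5 with p53 on and 1438 with p53 off. That value rests on 1 probe set, and 2 further ones annotated to more than 1 gene were not used. For DNAJA2, DNAJB4 and DNAJC7 the probe sets disagreed. DNAJC7, which binds both HSP70 and HSP90, read 2300 with p53 on and 4269 with p53 off on the brightest one (log2 ratio -0.89) but was higher on its other 2, at 0.64 and 0.47. DNAJA2 and DNAJB4 had log2 ratios of -0.66 and -0.86 on the brightest probe sets and of 0.20 and 0.14 on the second. On the second brightest probe sets the class median was 0.14, with 1 of 7 genes lower, so the lower class as a whole rests on the choice of probe set. DNAJB2, a J-domain protein best known from neurons, was the exception in direction. Its signal was 310.8 with p53 on and 16.1, under the floor, with p53 off, so it was at least 2.77-fold higher. DNAJB2 was thus measured only through the p53 on array, and the floor allowed it no ratio below 0.

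The cochaperones of HSP90 included the lowest ratios of all 36 genes. STIP1, the adaptor that hands clients from HSP70 to HSP90, read 1851 with p53 on and 7082 with p53 off, 3.83-fold lower. Its second probe set, at 1256 and 3508, gave a log2 ratio of -1.48. FKBP4, a prolyl isomerase of steroid receptor complexes, read 1528 with p53 on and 5492 with p53 off, 3.60-fold lower, with a second measured probe set at -1.56. CDC37, the adaptor for kinase clients, read 1654 with p53 on and 3467 with p53 off on its single probe set, 2.10-fold lower. PTGES3, the p23 protein that stabilises closed HSP90, read 16396 with p53 on and 23531 with p53 off, a log2 ratio of -0.52, and -0.89 after loess. FKBP5, the isomerase induced by glucocorticoids, read 2736 with p53 on and 2036 with p53 off, but its second measured probe set read 311.1 and 614.7. In all, 3 of 5 measured cochaperones (60%) were lower and none was higher, against 25.9% of all measured genes in each direction. After loess 4 were lower and 1 was higher. After quantile normalization or with the second brightest probe sets, 4 were lower and none was higher. Without probe sets marked as shared between transcripts, only FKBP5 and PTGES3 remained, with a median of -0.047 instead of -1.07.

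The BAG proteins release clients from HSP70. BAG3, which links HSP70 and small heat shock proteins to autophagy, read 19928 with p53 on and 6793 with p53 off on its single probe set, 2.93-fold higher. BAG1, which couples HSP70 to the proteasome, read 1669 with p53 on and 2168 with p53 off, and its dimmest probe set went the other way, at 711.7 and 287.4.

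**Figure D4:**
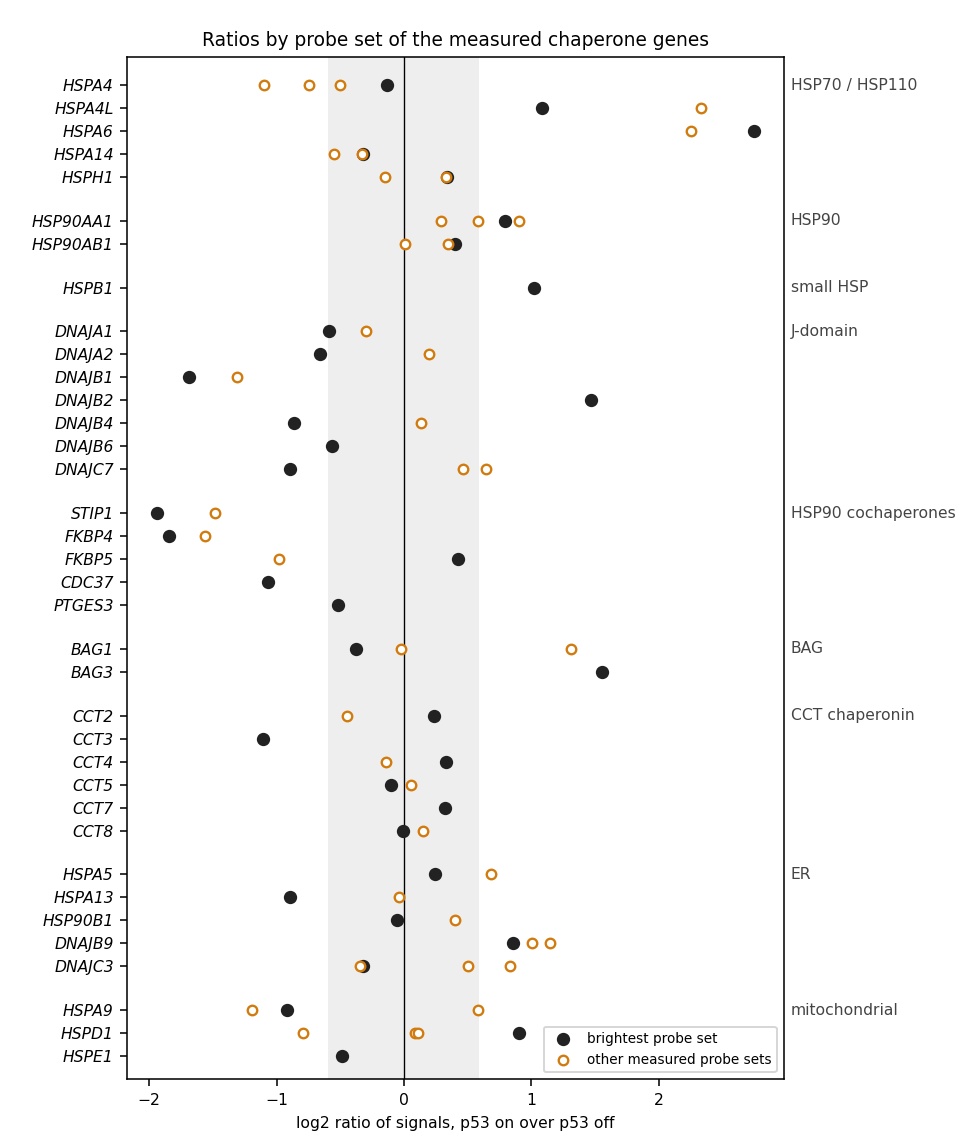
Log2 ratio of signals, p53 on over p53 off, for each measured probe set of the 36 measured chaperone genes, by class. Black points are the brightest probe sets and open orange points the others, and the grey band marks differences under 1.5-fold. The probe sets of HSPA6, HSPA4L, DNAJB9, DNAJB1, STIP1 and FKBP4 stay on 1 side of the band, while those of DNAJC7, HSPA9 and HSPD1 fall on both sides of 0.

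The subunits of the CCT chaperonin form 1 ring of different but related proteins. Of 6 measured subunit genes, none was higher and 1 (16.7%) was lower, against 25.9% of all measured genes in each direction. Their median log2 ratio was 0.11, or -0.043 with the second brightest probe sets. CCT3 stood apart among these 6, at 4466 with p53 on and 9616 with p53 off, 2.15-fold lower on its single probe set. CCT6A, a further subunit counted with prefoldin below, read 10878 with p53 on and 16185 with p53 off, 1.49-fold lower. Both of its probe sets were lower, at -0.57 and -0.19. CCT4 read 33018 with p53 on and 26270 with p53 off, CCT2 25611 and 21764, and CCT7 22470 and 17972. These 3 are among the genes with a mean signal of at least 20000, and after loess their log2 ratios were -0.18, -0.20 and -0.051. CCT5 read 16094 with p53 on and 17283 with p53 off, and CCT8 19438 and 19541, log2 ratios of -0.10 and -0.0077. The second probe sets of CCT2, CCT4 and CCT5 went the other way, at -0.45, -0.14 and 0.055. CCT3 had a log2 ratio of -1.11 both as deposited and after loess.

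In the ER, 1 of 5 genes (20%) was higher and 1 (20%) lower on the brightest probe sets, against 25.9% of all measured genes in each direction. Their median log2 ratio was -0.052. With the second brightest probe sets 3 were higher and none lower, with a median of 0.69, so the class count depends on the probe set. DNAJB9, a J-domain cofactor of the ER HSP70, read 1851 with p53 on and 1022 with p53 off, 1.81-fold higher, and all 3 of its probe sets were higher (0.86 to 1.15). HSPA13, a small ER-associated relative of HSP70, read 598.6 with p53 on and 1114 with p53 off, 1.86-fold lower, but its second probe set gave a log2 ratio of only -0.037. HSPA5, the ER HSP70 also called BiP, read 18865 with p53 on and 15905 with p53 off, and HSP90B1, the HSP90 of the ER, read 3997 and 4145. Neither reached 1.5-fold on these probe sets. The dimmer probe set of HSPA5, at 706.4 and 439.1, did so with a log2 ratio of 0.69, and that of HSP90B1 gave 0.40. For HSP90B1, 2 further probe sets annotated together with another gene were not used. DNAJC3, which assists BiP, had 4 probe sets with log2 ratios from -0.34 to 0.84. HSPA5 and HSP90B1 are shown because both carry the ER stress response element, searched as CCAAT, 9 free bases and CCACG on both strands and present in 0.074% of all windows. No other measured gene of the 40 with a window held it. The windows lie at chr9:125241344-125241463 (minus strand) and chr12:103930190-103930409 (plus strand), end at the base before the start site and have the matches in capitals.
HSPA5: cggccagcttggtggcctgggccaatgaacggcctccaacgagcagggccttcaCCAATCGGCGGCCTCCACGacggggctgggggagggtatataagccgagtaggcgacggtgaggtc
HSP90B1: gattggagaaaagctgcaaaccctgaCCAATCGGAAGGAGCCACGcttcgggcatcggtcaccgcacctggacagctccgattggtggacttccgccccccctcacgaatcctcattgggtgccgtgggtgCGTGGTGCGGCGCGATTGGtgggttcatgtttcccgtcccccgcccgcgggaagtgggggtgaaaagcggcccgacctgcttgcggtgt

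The mitochondrial chaperones split between the directions. HSPD1, the mitochondrial chaperonin HSP60, read 57932 with p53 on and 31051 with p53 off, 1.87-fold higher on its brightest probe set. Its second probe set read 21487 and 20225, and the log2 ratio of the brightest was 0.23 after loess. HSPE1, the lid of that chaperonin, read 12601 with p53 on and 17668 with p53 off on its single probe set, a log2 ratio of -0.49, and -0.75 after loess. HSPA9, the mitochondrial HSP70, read 6269 with p53 on and 11860 with p53 off, 1.89-fold lower, and 2732 and 6232 on its second probe set, but a further one, at 1578 and 1055, was higher. HSPD1 and HSPE1 are transcribed away from each other from start sites with 104 bases between them, at chr2:197500275-197500378 of GRCh38.p14, shown here on the plus strand, on which HSPE1 reads.
HSPD1-HSPE1: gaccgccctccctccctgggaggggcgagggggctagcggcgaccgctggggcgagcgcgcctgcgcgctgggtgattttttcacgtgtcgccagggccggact

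No two-unit heat shock element lies in these 104 bases. The matches of HSPD1, at -245 and -240 from the start site of the window that holds them, do not lie within these bases. With their brightest probe sets, the log2 ratios of this divergent pair differed by 1.39. With the second brightest probe set of HSPD1, at 0.087, the gap was smaller.

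Genes listed as heat-inducible, 17 in all and drawn from the classes above, had 13 measured members. Past 1.5-fold, 6 of 13 (46.2%) were higher and 5 (38.5%) lower, against 25.9% of all measured genes in each direction. HSPA6, BAG3, HSPA4L, HSPB1, HSPD1 and HSP90AA1 made up the first set and DNAJA1, DNAJB1, DNAJB4, STIP1 and FKBP4 the second. HSPH1 and HSPE1 lay between. After loess or quantile normalization, 4 were higher and 6 lower. With the mean of the probe sets or the second brightest one, 5 were higher and 3 lower. Without _x_at and _s_at probe sets, 3 of 7 genes with a value were higher and 1 was lower. HSF1, the main heat shock factor, read 492.7 with p53 on and 763.8 with p53 off, 1.55-fold lower, and its second probe set was lower too, but after loess it no longer reached 1.5-fold. HSBP1, a small protein that binds HSF1, read 5294 and 6562, and its probe sets disagreed in sign.

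A further 88 genes in 9 lists place these results in the folding machinery. Their shares stand against 25.9% of all measured genes at least 1.5-fold higher and 25.9% lower. Of 12 mitochondrial chaperones, import motor subunits and proteases, 7 (58.3%) were at least 1.5-fold lower and none was higher. Their median log2 ratio was -0.65. All 12 were below 0 on their brightest probe sets, and after loess 11 of 12 were, with 5 at least 1.5-fold lower. With the second brightest probe sets 10 of 12 were below 0, with 6 at least 1.5-fold lower. CLPP, a matrix protease, read 1475 with p53 on and 4229 with p53 off, 2.87-fold lower. TIMM44 and PAM16, which tie mitochondrial HSP70 to the import channel, were 2.80-fold and 2.34-fold lower. Prefoldin, which passes nascent actin and tubulin to CCT, was listed with the remaining CCT genes. There 2 of 7 (28.6%) were lower and 1 (14.3%) higher. PFDN2 read 1159 with p53 on and 4139 with p53 off, 3.57-fold lower, PFDN1 was 2.07-fold lower, and CCT6B, a testis form of a CCT subunit, was 1.69-fold higher.

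Among 10 other HSP90 cochaperones, 4 were lower and none was higher, but with the second brightest probe sets 3 were higher and 4 lower. FKBP8, a membrane-bound isomerase, read 147.3 with p53 on and 488.5 with p53 off, 3.32-fold lower. NUDC, a cochaperone of nuclear movement proteins, was 2.19-fold lower, with its 3 probe sets between -1.51 and 0.082. PPP5C, the HSP90-bound phosphatase, was 3.31-fold lower by the brightest of its probe sets, but the other one gave a log2 ratio of 1.51. Other J-domain genes were mixed, with 6 of 15 higher and 5 lower. DNAJC18, an ER-membrane J-domain protein, read 1153 with p53 on and 227.1 with p53 off, 5.07-fold higher. DNAJC5, the cysteine string protein of secretory vesicles, read 3296 and 758.6, 4.35-fold higher, and DNAJC12 was at least 3.58-fold higher. Of other HSP70 genes and exchange factors, 2 of 9 (22.2%) were higher and 3 (33.3%) lower, near the 25.9% of all measured genes in each direction. HSPA12A, a distant HSP70 relative, read 3970 with p53 on and 178.6 with p53 off, 22.2-fold higher, while its dim second probe set gave a log2 ratio of 0.17. BAG5 was 3.16-fold higher on the brightest of its probe sets, with all 3 higher. BAG2 was 2.73-fold lower on its brightest, but its 3 probe sets disagreed in sign (-1.45 to 0.45).

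The ER stress lists showed few large ratios. Of 6 sensors and factors of the unfolded protein response, 1 (16.7%) was higher, against 25.9% of all measured genes, and none was lower. DDIT3, the CHOP factor, read 633.9 with p53 on and 304.1 with p53 off, 2.08-fold higher. ERN1, a sensor kinase, and XBP1, the factor it activates by splicing, had log2 ratios of 0.44 and -0.25. For both the probe sets disagreed in sign (-0.55 to 0.44 and -0.25 to 0.41). Of 15 other ER folding genes, 2 were higher and 3 lower, with a median of 0.029. PDIA4, a disulfide isomerase, was 2.09-fold lower by the brightest of its probe sets, while the other gave a log2 ratio of 1.03. ERO1A, the oxidase that drives disulfide formation, was 1.81-fold higher by its brightest probe set, with another at -0.68, and HYOU1, an ER exchange factor, was 1.65-fold lower. Among other small heat shock genes 2 of 7 were measured. HSPB3 read 422.9 with p53 on and 95.8 with p53 off, and CRYAB 332.9 and 27.2, which makes them at least 3.76-fold and 2.96-fold higher. Both were measured only through the p53 on array, so the floor allowed them no ratio below 0.

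**Figure D5:**
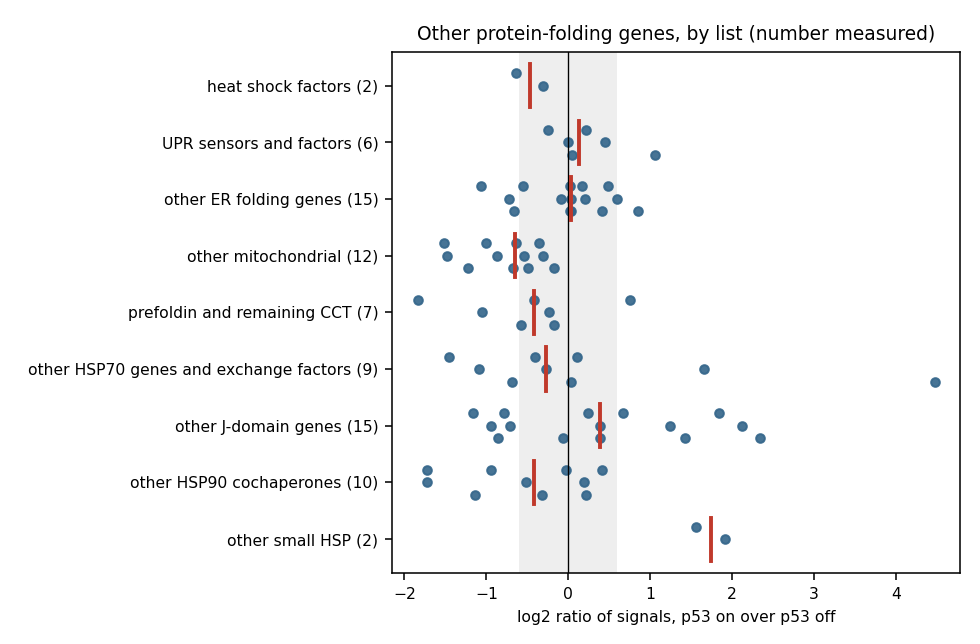
Log2 ratio of signals, p53 on over p53 off, for each measured gene of 9 lists of other protein-folding genes, with the number measured in brackets. Each point is the brightest probe set of a gene, the red bar is the list median and the grey band marks differences under 1.5-fold. The other mitochondrial genes all lie below 0, with a median of -0.65, and HSPA12A lies far to the right.

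Several probe sets for 1 gene were the only repeat measurement. Among 27 chaperone genes with several measured probe sets, 13 (48.1%) had a single direction throughout, against 58.6% of 6676 such genes in all. Across the processing described and 10 alternatives to it, which leave out spike-in scaling, 11 of the 19 genes called at 1.5-fold stayed past that size wherever they had a value. These were HSPA6, HSPA4L, HSPB1, BAG3, DNAJB2 and DNAJB9 among the higher genes and STIP1, FKBP4, DNAJB1, CDC37 and CCT3 among the lower. With spike-in scaling as well, HSPA4L (0.17), HSPB1 (0.10) and DNAJB9 (-0.061) no longer reached it, and the other 8 did. Of these 11 genes, HSPB1, BAG3, DNAJB2, CDC37 and CCT3 had only 1 measured probe set, so no alternative could set another against it. DNAJB2 was also measured only through the p53 on array, which fixed its direction wherever a floor was used.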

How the data were processed

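RNA of DLD-1 cells was measured on 2 arrays, 1 per condition, grouped by the treatment in the labels. The authors deposited 1 linear intensity for each probe set, the MAS5 signal, which the submitters' processing notes name. Its version, its settings and any detection calls were not given in the sources used here. Both columns had a trimmed mean of 500.1 (2% left out at each end), so each array had been scaled to a common target. No further normalization was added. An array has no read depth, and the number of arrays limits the precision.

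GEO's platform annotation gave 1 symbol to 41091 of the 54613 non-control probe sets, several to 1801 and none to 11721. Symbols were updated to RefSeq names of GRCh38.p14. Only probe sets with 1 symbol were used. HSPA1B (3 probe sets), HSPA8 (4) and TCP1 (3) shared theirs with other genes, and AHSA1 was annotated to none. Each gene took the probe set brightest on average, and signals under the floor (50th percentile) were set to it. Folds with 1 signal under the floor are written "at least". Such a gene was measured through 1 array alone, so the floor fixed the direction of its ratio. With no replicates, genes were counted by size alone and no p-value was computed.

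The members and lists were chosen with earlier results of these data known. All members are reported. From each of the 9 lists of other genes the 3 with the largest absolute log2 ratio are named, and others were named after their values were seen. The gene that encodes p53 is not reported here. The steps were tested on simulated data. Sequences are RefSeq promoter windows. The work used pandas 2.3.3 and numpy 2.4.6 under Python 3.11.15, with statsmodels 0.14.6 for loess, scipy 1.17.1, and matplotlib 3.10.9 for plots. The alternatives were other floors and pseudocounts, centring, quantile normalization, loess (span 0.3), other probe sets per gene and spike-in scaling.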

Additional observations from a re-analysis of the deposited data

Results flagged for a closer look

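The 3' and 5' control probe sets, left out of every gene comparison above, read unlike on the 2 arrays. The 3' over 5' signal ratio of beta-actin was 7.29 on the p53 on array and 1.37 on the p53 off array. That of GAPDH was 1.77 on the p53 on array and 0.97 on the p53 off array. Their part in the chaperone ratios was not tested.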

How the results depend on the processing

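The count of genes at least 1.5-fold higher was 8 and that of genes at least 1.5-fold lower 11, of 36 measured. Floors at the 40th and 60th percentile, a pseudocount of 1 or equal to the floor, and centring gave 8 higher and 10 or 11 lower. These settings had 36 to 38 genes with a value. Quantile normalization gave 6 and 13, and loess 7 and 12. The mean of all measured probe sets left 6 lower, and the second brightest probe set gave 10 higher and 7 lower. Without _x_at and _s_at probe sets, 5 were higher and 6 lower, of only 26 genes with a value. Across all settings so far, 22.7% to 33.5% of all measured genes were higher and 23.1% to 29.5% lower. Scaling to the spike-ins was an alternative chosen after earlier results were seen. It gave 3 higher and 25 lower, of 37 genes with a value, because 1 factor shifts every gene. Of all measured genes, 9.5% were higher and 58.7% lower under this scaling. With it the median log2 ratio was -1.02 for all chaperone genes, -0.58 for cytosolic HSP70 and HSP110 genes, -1.99 for HSP90 cochaperones and -0.97 for ER chaperones, and the called genes HSP90AA1 (-0.13), DNAJB9 (-0.061) and HSPD1 (-0.019) changed sign. HSP90AA1 also changed sign after quantile normalization (-0.0069), DNAJC7 with the mean of its probe sets (0.073) and with its second brightest one (0.64), DNAJA2 and DNAJB4 with the second brightest (0.20 and 0.14), and HSPA9 without _x_at and _s_at probe sets (0.58). The cause was not tested, apart from the factor named. No paired analysis was possible because each condition has 1 array. For the same reason no array could be left out.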
